A study of Homo sapiens with 10 samples.

Results

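The response of A375 cells to PHF10 knockdown was compared with their response to MYC knockdown, gene by gene, as a difference of differences. For each gene the log2 fold change of the libraries labelled MYC knockdown over their controls was subtracted from the log2 fold change of the PHF10 knockdown libraries over theirs. All 10 of the 10 libraries entered this contrast. A375 is an established human melanoma line. Experiment 1 held 4 libraries of cells given small interfering RNA (siRNA) against PHF10 and 2 control libraries, and experiment 2 held 2 libraries of cells given siRNA against MYC and 2 control libraries, all collected at 72 h. The labels disagree on the controls: their treatment field gives no treatment, while the protocol and the design text speak of a control siRNA. The titles of the PHF10 libraries carry the word total, which the labels do not explain. Each knockdown was done in a separate experiment, so a difference between knockdowns and a difference between experiments cannot be told apart. Whether the libraries of a group were separate cultures is not stated, and the p-values speak only of the spread among these libraries, which may be technical.

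PHF10 is a PHD finger subunit of PBAF, a SWI/SNF complex that slides and evicts nucleosomes and so changes which promoters and enhancers can be read. MYC is a transcription factor that pairs with MAX, binds the E-box letters CACGTG, and raises genes of ribosome production, metabolism and cell division. Melanoma cells can shift between a pigmented state and less differentiated states, in which genes of adhesion, matrix and cytoskeleton are high.

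Reads in genes numbered 20.47 to 38.37 M per library, and 18450 genes were tested. Levels are given as CPM, gene counts scaled to a common library size. Replicates spread far more in experiment 1 than in experiment 2: the biological coefficient of variation was 26.8% with experiment 1 fitted alone, 3.39% with experiment 2 alone and 21.4% in the joint fit used here. Within experiment 1 the interferon genes divided the libraries across its groups. Their mean log2 CPM over 48 genes reached 7.62, 7.32, 3.89 and 5.02 in replicates 1 to 4 of PHF10 knockdown and 7.95 and 4.88 in the controls, against 3.48 to 3.67 in experiment 2. The melanoma gene SOX10 was high in every library (528 to 948 CPM), whereas the pigment genes MLANA and TYR were at most 0.045 and 0.057 CPM and PMEL at most 2.54 CPM.

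The knocked down genes were examined first. PHF10 measured 16.1, 17.96, 15.1 and 15.7 CPM in the PHF10 knockdown libraries, against 40.1 and 36.6 CPM in their controls. In experiment 2 it measured 124.2 and 119.1 CPM in libraries labelled MYC knockdown, with 124.2 and 124.9 CPM for their controls. PHF10 was thus lower in every library of its own knockdown, and the controls of the 2 experiments did not overlap either. Its log2 fold change was −1.24 after PHF10 knockdown and −0.03 in libraries labelled MYC knockdown, a difference of −1.21 (SE 0.16, Benjamini-Hochberg adjusted p = 0.0221). MYC measured 12.9, 9.69, 14.6 and 22.0 CPM after PHF10 knockdown against 20.2 and 32.1 CPM. It measured 16.7 and 13.3 CPM in libraries labelled MYC knockdown, with 14.9 and 26.5 CPM for their controls, so its mRNA left the groups of experiment 2 overlapping. Its fold change was −0.82 in the former knockdown and −0.46 in the latter, and the difference of −0.36 had a 95% interval of −1.51 to 0.79 (adjusted p = 0.887). Every direction given below for the libraries labelled MYC knockdown rests on the label.

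The difference of responses passed an adjusted p of 0.05 in 71 genes, which was 0.385% of those tested. It was above 0 in 48 genes (0.26%), meaning that the gene's level rose more, or fell less, after PHF10 knockdown than in libraries labelled MYC knockdown. It was below 0 in 23 genes (0.125%). At an unadjusted p of 0.05 there were 2157 genes, against 922 that this cutoff would give with no difference anywhere. The PHF10 response alone passed in 6.34% of genes, with 508 rises (2.75%) and 661 falls (3.58%). The labelled MYC response passed in 0.493%, with 52 rises (0.282%) and 39 falls (0.211%). The controls of experiment 2 already differed from those of experiment 1 in 14.6% of genes, higher in 1485 (8.05%) and lower in 1217 (6.6%). Across the 18450 genes the 2 responses, which share no library, had a Pearson's r of 0.186 and a Spearman's rank correlation of 0.257, a description without a p since genes are not independent. The count of 71 rested on single libraries of the small groups: it was 10 and 2 without control replicate 1 or 2 of experiment 1, 1 without either library labelled MYC knockdown, and 4 without either control of experiment 2. It was 140 and 122 without PHF10 knockdown replicate 1 or 2. All 71 genes had the same sign in each of these fits, and KRT80 was past the threshold in every such fit.

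**Figure D1:**
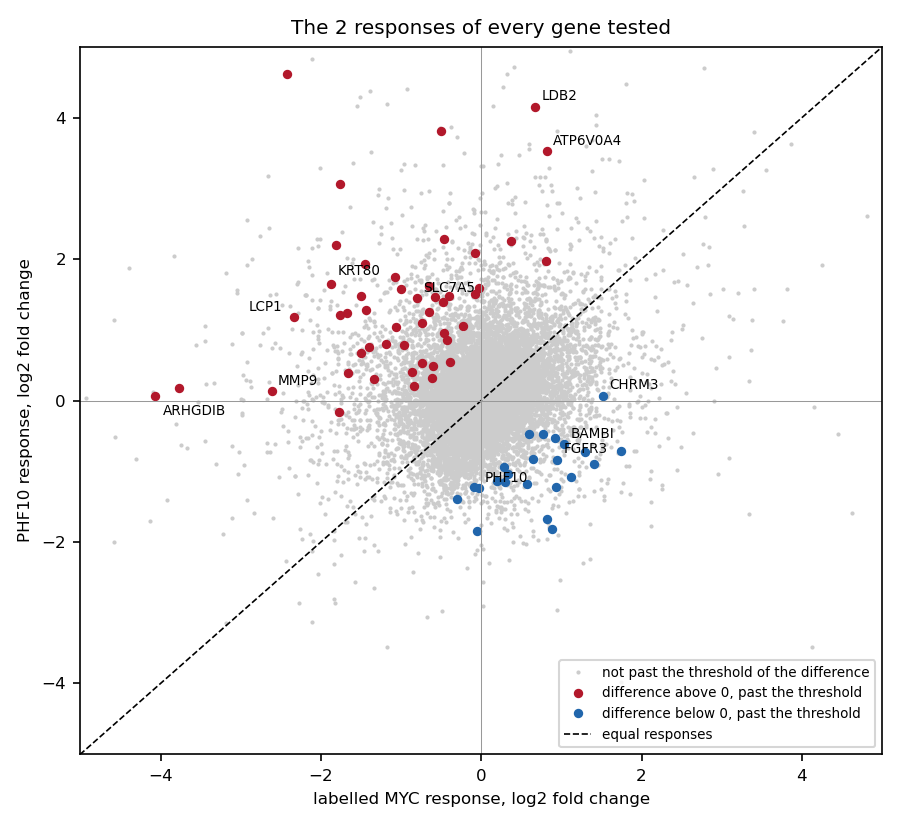
Each point is a gene, with its log2 fold change in libraries labelled MYC knockdown on the x axis and after PHF10 knockdown on the y axis, and 15 genes lie outside the plotted range of 5. The 48 genes with a difference above 0 (red) lie above the dashed line of equal responses and the 23 below 0 (blue) lie under it.

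Among the called genes, 8 passed the threshold of both responses in opposite directions: the keratin genes KRT80 and KRT7, the actin bundler LCP1, the teneurin TENM2 and the caveolae coat gene CAV1 rose after PHF10 knockdown and were lower in libraries labelled MYC knockdown, and the receptor gene FGFR3, BAMBI and the G protein subunit gene GNG2 did the reverse. KRT80 encodes an epithelial intermediate filament protein. It measured 86.0, 71.7, 60.5 and 86.5 CPM in the PHF10 knockdown libraries against 26.4 and 22.1 CPM in their controls. In experiment 2 it measured 35.0 and 38.7 CPM in libraries labelled MYC knockdown against 130.5 and 138.9 CPM. The groups did not overlap in either experiment, and the controls of experiment 2 lay above every library of experiment 1. The fold changes of 1.65 and −1.87 gave a difference of 3.52 (SE 0.25, 95% interval 2.96 to 4.08, adjusted p = 0.00177). KRT80 was the only gene past the threshold in all 10 fits that left out a library, where its difference ran from 3.40 to 3.65.

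LCP1 encodes plastin, a protein that ties actin filaments into bundles and is best known from blood cells. It measured 3.40, 2.51, 2.52 and 2.91 CPM after PHF10 knockdown against 1.07 and 1.43 CPM. It measured 2.73 and 3.13 CPM in libraries labelled MYC knockdown against 15.2 and 14.3 CPM. The knockdown libraries of the 2 experiments thus had like levels of LCP1, while their controls lay apart, the second pair above the first by 3.56 on the log2 scale. The difference of responses was 3.51 (SE 0.32, adjusted p = 0.00485). TENM2, a cell surface protein of neuronal and other contacts, measured 20.03, 23.6, 18.5 and 16.4 CPM against 6.18 and 5.49 CPM, and 11.8 and 10.2 CPM against 22.0 and 24.4 CPM. Its difference was 2.83 (SE 0.25, adjusted p = 0.00485). With single libraries left out, LCP1 was past the threshold in 8 of 10 fits and TENM2 in 7 of 10.

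CAV1 had like levels in the controls of both experiments. It measured 51.8 and 56.6 CPM in the controls of experiment 1 and 58.8 and 60.1 CPM in those of experiment 2. After PHF10 knockdown it measured 79.1, 71.01, 83.3 and 111.2 CPM, and in libraries labelled MYC knockdown 20.6 and 21.4 CPM. Its knockdown groups lay on opposite sides of all 4 controls. The difference was 2.17 (SE 0.25, adjusted p = 0.0197).

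The 3 genes that moved the other way also had controls at like levels. FGFR3, a receptor tyrosine kinase for fibroblast growth factors, measured 7.74, 9.40, 8.08 and 9.25 CPM after PHF10 knockdown against 15.8 and 15.0 CPM, and 24.8 and 24.2 CPM in libraries labelled MYC knockdown against 13.2 and 12.2 CPM. Its difference was −1.78 (SE 0.19, adjusted p = 0.0117), the smallest adjusted p among the 23 genes below 0. BAMBI, a pseudoreceptor that dampens TGF-beta signals, measured 46.4, 66.5, 65.2 and 58.5 CPM against 84.4 and 96.7 CPM, and 162.2 and 177.9 CPM against 82.9 and 82.7 CPM. Its difference was −1.65 (SE 0.22, adjusted p = 0.0266). GNG2 measured 42.8, 37.4, 43.0 and 44.6 CPM against 54.6 and 61.8 CPM, and 88.4 and 91.5 CPM against 51.9 and 53.9 CPM, with a difference of −1.24 (SE 0.16, adjusted p = 0.0221). In each of these 3 genes the PHF10 knockdown libraries lay below all 4 controls and the libraries labelled MYC knockdown above them. The differences of FGFR3, BAMBI and GNG2 were each past the threshold in 4 of the 10 fits that left out a library.

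**Figure D2:**
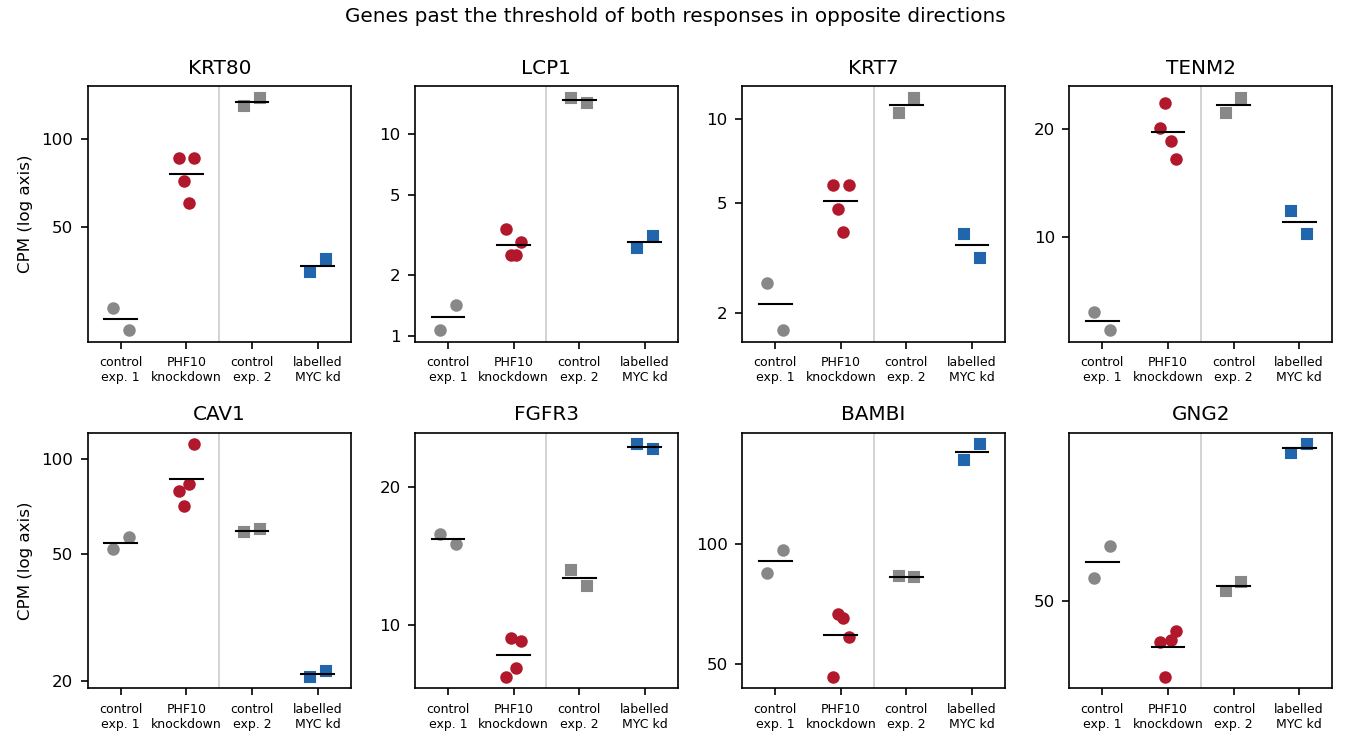
CPM on a log axis in every library (points) with group means (bars) for the 8 genes past the threshold of both responses in opposite directions; circles are experiment 1 and squares experiment 2. KRT80, LCP1, KRT7 and TENM2 start from controls that differ between experiments, whereas the 4 controls of CAV1, FGFR3, BAMBI and GNG2 lie close together.

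A larger set of called differences passed the threshold of the PHF10 response and not that of the labelled MYC response. Of the 48 genes above 0, 29 were past the threshold of the PHF10 response alone, 7 of the labelled MYC response alone, 5 of both in opposite directions, 1 of both as a rise and 6 of neither. Of the 23 below 0, 15 were past the threshold of the PHF10 response alone, 2 of the labelled MYC response alone, 3 of both and 3 of neither. The difference and the single responses share libraries, so this only divides the calls and adds no evidence. Passing a single threshold also does not make that response the larger. KRT81 had responses of 1.48 after PHF10 knockdown and −1.49 in libraries labelled MYC knockdown, and LINP1 of 1.28 and −1.44. With each experiment fitted alone the PHF10 response had 50 calls and the labelled MYC response 7779. ATP6V0A4, a membrane subunit of the proton pump V-ATPase, measured 91.2, 53.3, 89.1 and 118.7 CPM after PHF10 knockdown against 6.46 and 8.77 CPM, and 63.4 and 62.7 CPM in libraries labelled MYC knockdown against 35.4 and 36.2 CPM. Its groups did not overlap in either experiment, and the responses were 3.53 and 0.82 on the log2 scale, the latter short of the threshold (adjusted p = 0.266). The difference was 2.71 (SE 0.41, adjusted p = 0.0369).

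LDB2, a cofactor of LIM homeodomain proteins, measured 3.35, 3.41, 5.00 and 6.12 CPM after PHF10 knockdown against 0.279 and 0.216 CPM, and 8.52 and 9.68 CPM against 5.57 and 5.87 CPM, with a difference of 3.49 (SE 0.48, adjusted p = 0.0296). ADGRF1, an adhesion G protein-coupled receptor, measured 59.1 to 114.2 CPM after PHF10 knockdown against 16.3 and 17.5 CPM. In experiment 2 it measured 73.0 and 85.5 CPM against 108.2 and 109.6 CPM, and its difference was 2.74 (SE 0.35, adjusted p = 0.0221). ITGA2, the collagen-binding integrin alpha subunit, measured 475.7, 457.4, 273.4 and 315.5 CPM against 102.8 and 76.5 CPM. It overlapped between the groups of experiment 2, at 231.5 and 256.7 CPM against 253.4 and 259.8 CPM, and its difference was 2.16 (SE 0.36, adjusted p = 0.0464). BTG2, an antiproliferative gene that p53 can induce, measured 103.2, 87.2, 78.9 and 65.8 CPM against 29.7 and 26.0 CPM, and 10.8 and 12.7 CPM against 12.5 and 11.3 CPM. Its difference was 1.61 (SE 0.27, adjusted p = 0.0461).

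Among the falls on the PHF10 side, PTCH1, the receptor for hedgehog ligands and itself a target of that pathway, measured 27.6, 26.3, 29.3 and 33.0 CPM against 59.6 and 70.0 CPM, and 48.0 and 53.6 CPM against 42.2 and 40.6 CPM. Its difference was −1.45 (SE 0.19, adjusted p = 0.0221). SPRY4, a feedback inhibitor of the ERK pathway, measured 312.2, 276.8, 237.6 and 267.3 CPM against 552.0 and 421.6 CPM, and 314.4 and 335.9 CPM against 209.5 and 206.7 CPM. Its difference was −1.48 (SE 0.22, adjusted p = 0.0369). MMP15, a membrane-bound matrix protease, had 19.6 to 21.9 CPM against 39.3 and 47.1 CPM, and 27.6 and 27.7 CPM against 22.4 and 21.5 CPM, with a difference of −1.37 (SE 0.17, adjusted p = 0.0215). EPHB3, an ephrin receptor, had a fold change of −1.397 after PHF10 knockdown and of −0.31 in libraries labelled MYC knockdown, a difference of −1.09 (SE 0.18, adjusted p = 0.0461). All 4 of these genes were lower in every PHF10 knockdown library than in either control of experiment 1.

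Fewer called differences passed the threshold of the labelled MYC response and not that of the PHF10 response. MMP9, a secreted protease that degrades basement membrane collagen, measured 37.8 and 32.7 CPM in libraries labelled MYC knockdown against 213.2 and 218.5 CPM. It stayed between 1.345 and 2.68 CPM in all 6 libraries of experiment 1, so its groups overlapped there. The fold changes of 0.13 and −2.61 gave a difference of 2.74 (SE 0.34, adjusted p = 0.0215). ARHGDIB, a gene best known from blood cells, measured 0.481 and 0.446 CPM against 7.71 and 8.05 CPM in experiment 2. In experiment 1 it measured 1.34, 1.54, 2.59 and 1.52 CPM against 1.02 and 2.33 CPM, and its difference was 4.13 (SE 0.58, adjusted p = 0.0298). CHRM3, a muscarinic acetylcholine receptor, went the other way, at 41.8 and 39.9 CPM against 14.7 and 13.8 CPM in experiment 2 and at 14.8 to 20.3 CPM against 16.95 and 14.99 CPM in experiment 1. Its difference was −1.45 (SE 0.22, adjusted p = 0.0371). A gene chosen after its values were seen, the cell surface proteoglycan SDC4, measured 315.0 and 292.4 CPM against 1046 and 1032 CPM in experiment 2 and 153.3 to 199.9 CPM against 213.5 and 185.3 CPM in experiment 1, with a difference of 1.61 (SE 0.23, adjusted p = 0.0298).

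Other genes stood at the ends of the ranking. Above 0 these were the immunoglobulin-domain muscle protein gene IGFN1 (4.31, SE 0.71), the sarcomere gene MYPN (3.38, SE 0.57) and the long noncoding RNA LINP1 (2.72, SE 0.37). Below 0 they were RASL12 (−2.69, SE 0.45), APC2 (−2.46, SE 0.40), the membrane protein gene PALM (−2.31, SE 0.38), the Notch target HEY2 (−2.15, SE 0.34), the tubulin gene TUBB4A (−2.03, SE 0.32), ZNF853 (−1.79, SE 0.29) and CCDC113 (−1.74, SE 0.25). Their adjusted p lay between 0.0266 and 0.0464. IGFN1 was low in the controls of experiment 1, at 0.325 and 0.216 CPM, so its size depends on few reads. With unstranded counts the difference of APC2 was −0.80 and short of the threshold. The 3 called genes nearest the threshold were KCNK1, LINC01363 and RAC2 (adjusted p = 0.0489 for each), and C1QTNF1, MTUS2 and a gene with no symbol lay just outside it (0.0515, 0.0523 and 0.0533).

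**Figure D3:**
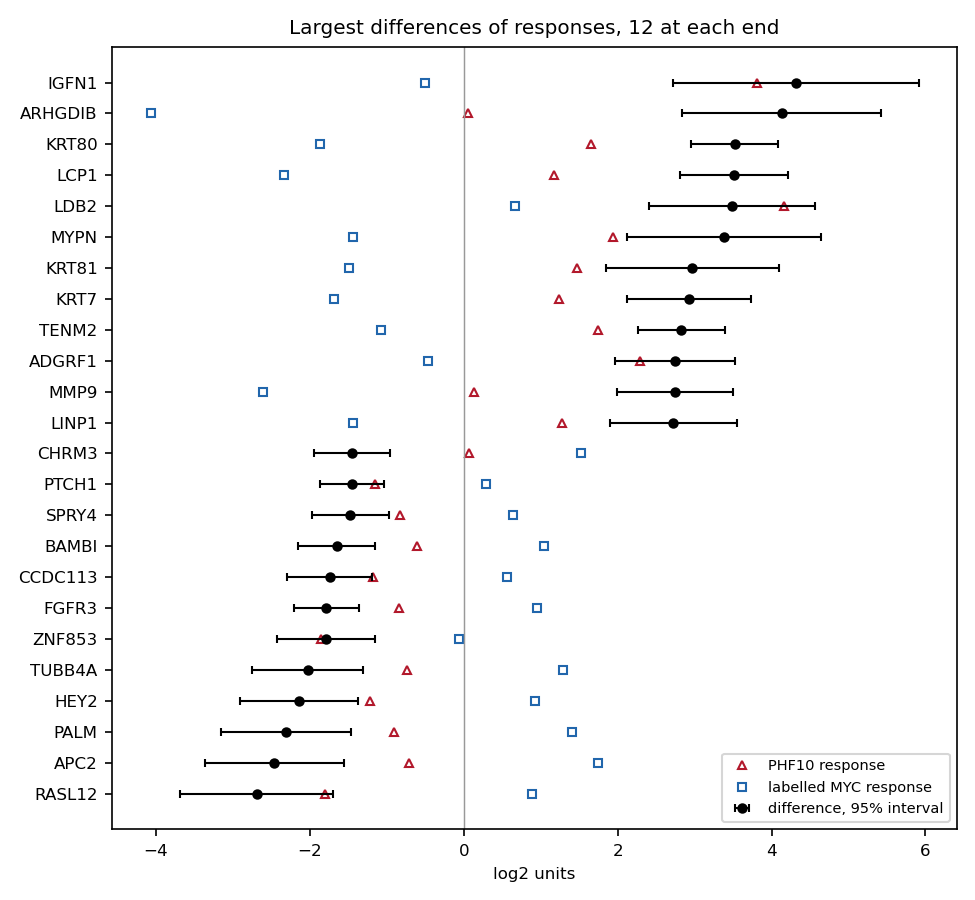
Difference of responses with its 95% interval (black) and the 2 responses it is made of (red triangles for PHF10, blue squares for labelled MYC), in log2 units, for the 12 largest called differences at each end among genes with a group mean of at least 5 CPM and no clone name. KRT80, LCP1, KRT7 and TENM2 have a response on each side of 0, ARHGDIB and MMP9 have a PHF10 response near 0, and LDB2 has both responses above 0.

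Genes past the threshold of both responses in the same direction were compared for the size of the response. Both responses passed the threshold as rises in 20 genes and as falls in 6, and of these 26 only ADGRL4, an adhesion receptor of endothelial cells, also passed the threshold of the difference. It measured 17.4, 16.5, 15.8 and 16.97 CPM after PHF10 knockdown against 4.13 and 4.36 CPM, and 25.9 and 24.8 CPM in libraries labelled MYC knockdown against 14.4 and 14.7 CPM. The rises of 1.97 and 0.80 differed by 1.17 (SE 0.17, 95% interval 0.79 to 1.54, adjusted p = 0.0308). Over all genes tested, 0.385% passed the threshold of the difference. Missing that threshold does not show that the responses of a gene were equal. Called genes such as ATP6V0A4, LDB2 and EPHB3 also had both responses in the same direction, but only their PHF10 response passed the threshold.

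For shared responses that did not differ past the threshold, the intervals limit how far apart they can be. CSGALNACT1, which starts chondroitin sulfate chains, measured 75.3, 74.1, 65.6 and 67.1 CPM against 33.3 and 30.4 CPM, and 67.5 and 63.5 CPM against 33.3 and 32.3 CPM. Its rises of 1.15 and 1.00 differed by 0.15, with an interval of −0.20 to 0.50. TGIF2, a transcriptional repressor in TGF-beta signalling, fell by 0.72 and by 0.88 (difference 0.15, interval −0.21 to 0.52). UCK2, a pyrimidine salvage kinase, fell by 0.91 and by 0.73 (difference −0.18, interval −0.56 to 0.20). ETS1, a transcription factor, measured 31.2 to 37.0 CPM against 49.8 and 60.1 CPM in experiment 1 and 149.7 and 154.8 CPM against 273.1 and 266.9 CPM in experiment 2. Its control level thus differed between experiments while its falls of 0.71 and 0.83 differed by 0.12 (interval −0.27 to 0.50). TNS3, an adhesion adaptor, had falls that differed by 0.07 (interval −0.34 to 0.47), and CYB561D1 had rises that differed by −0.08 (interval −0.52 to 0.35). These 6 had the narrowest intervals over 0 among the genes past the threshold of both responses in the same direction. They were chosen because the interval covers 0, so their small differences are no evidence that shared responses are alike.

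The 2 responses were next compared over gene lists, given by the counts and median of the difference. Over all genes tested the median difference was 0.01, and 11.7% had an unadjusted p under 0.05. Keratins had the largest median among lists with at least 10 tested members, at 1.97 with all 13 tested members above 0. Of these, 3 passed the threshold upward and 10 had an unadjusted p under 0.05. The median response was 0.63 after PHF10 knockdown and −1.34 in libraries labelled MYC knockdown. The list's mean log2 CPM was 2.88, 3.00, 2.87 and 2.83 after PHF10 knockdown, against 2.24 and 1.98 in those controls. It was 2.69 and 2.73 in libraries labelled MYC knockdown, against 3.72 and 3.74, so the groups did not overlap in either experiment.

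KRT80, KRT7 and KRT81, the 3 keratins that passed, lie close together on chromosome 12 (KRT80 at 52168996 to 52192000, KRT7 at 52232520 to 52252186 and KRT81 at 52285913 to 52291534, GENCODE release 29 on GRCh38). KRT7, a keratin of simple epithelia, measured 5.81, 4.74, 3.93 and 5.77 CPM against 2.55 and 1.73 CPM, and 3.85 and 3.16 CPM against 10.5 and 11.99 CPM. Its difference was 2.92 (SE 0.36, adjusted p = 0.0215). KRT81, a hair keratin, had a difference of 2.97 (SE 0.50, adjusted p = 0.0473), but it has a near-identical copy in KRT86 and reads may be divided between them. KRT14, KRT18, KRT6B and KRT15 had differences of 1.89, 0.98, 1.97 and 2.16 with adjusted p of 0.0695 to 0.0901. KRT18, the most abundant, measured 224.8 to 314.6 CPM after PHF10 knockdown against 190.8 and 213.7 CPM, and 156.2 and 157.7 CPM against 234.9 and 241.6 CPM. The epithelial markers EPCAM and CDH1 were at most 1.08 and 0.081 CPM in any library. CLDN4, an epithelial marker that is not a keratin, measured 41.63, 20.1, 20.49 and 31.64 CPM after PHF10 knockdown against 17.93 and 14.65 CPM. In experiment 2 it measured 8.897 and 9.959 CPM in libraries labelled MYC knockdown against 20.04 and 18.58 CPM. Its groups did not overlap in either experiment, though none of the 5 tested epithelial markers passed the threshold of the difference. The summed level of the 6 epithelial markers, of which KRT5 and KRT14 are keratins, was 26.9 to 49.6 CPM after PHF10 knockdown against 22.5 and 24.3 CPM, and 12.5 and 14.5 CPM against 31.7 and 33.6 CPM. The part of other cells in the keratin levels was not tested.

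**Figure D4:**
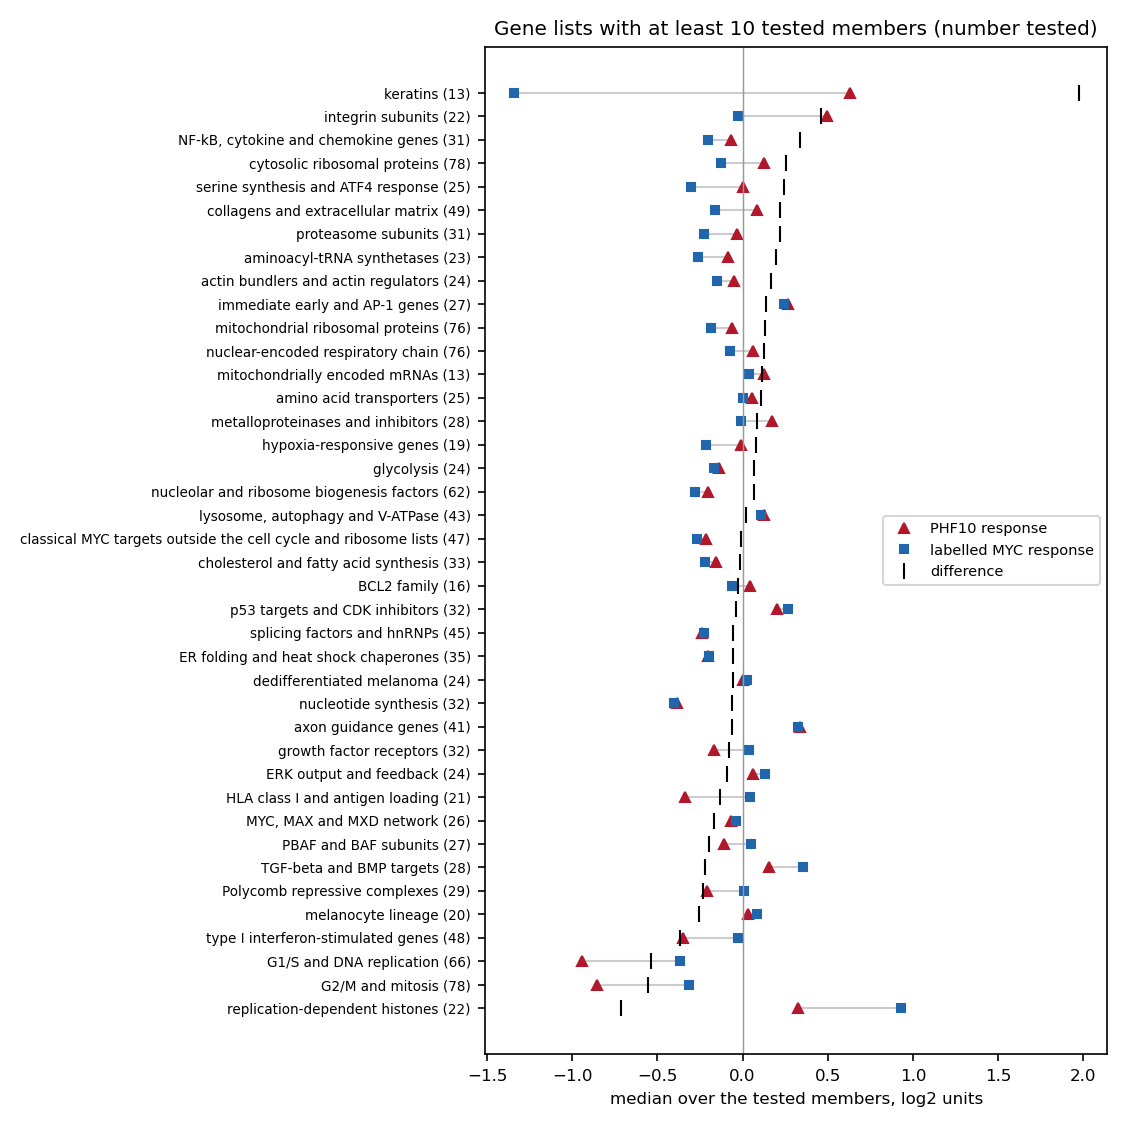
Median log2 fold change of the PHF10 response (red triangles), the labelled MYC response (blue squares) and median difference (black bars) over the tested members of each gene list with at least 10. Keratins lie at the top with medians on opposite sides of 0, and the cell cycle lists lie near the bottom with both medians below 0.

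Amino acid transporters were divided. By edgeR 2 of 25 tested members passed upward, SLC7A5 and SLC3A2, and 0 downward, with a median of 0.11. At an unadjusted p under 0.05 there were 8 above 0 and 3 below. DESeq2 called 4 upward and 2 downward, as did limma-voom with weights for each experiment, and limma-voom alone called 2 upward and 0 downward. SLC7A5 and SLC3A2 encode the light and heavy chains of a single exchanger, LAT1 with CD98, that carries leucine and other large neutral amino acids into the cell. SLC7A5 measured 812.4, 922.8, 767.2 and 881.7 CPM after PHF10 knockdown against 293.6 and 325.6 CPM. It measured 543.1 and 448.8 CPM in libraries labelled MYC knockdown against 840.0 and 889.2 CPM. Its fold changes of 1.45 and −0.80 gave a difference of 2.25 (SE 0.22, 95% interval 1.76 to 2.75, adjusted p = 0.00644). SLC3A2 measured 368.6, 387.7, 348.4 and 399.7 CPM against 212.3 and 203.0 CPM, and 227.9 and 214.3 CPM against 293.2 and 300.0 CPM, with a difference of 1.28 (SE 0.17, adjusted p = 0.0221). Both chains had responses of the same sign in each experiment and their groups did not overlap in either, although neither passed the threshold of the labelled MYC response alone (adjusted p = 0.0672 and 0.168). The cationic amino acid transporter SLC7A1 had a difference of 1.28 (adjusted p = 0.0766), and SLC38A2 and SLC1A1 had differences of −0.13 and 0.02.

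The letters CACGTG, the E-box that MYC and MAX bind, were counted on both strands in the 250 bases before RefSeq transcript starts (GRCh38.p14). They were present in 5 of 54 promoters of genes called above 0 (9.26%), in 2 of 36 promoters of genes called below 0 (5.56%) and in 1438 of 17933 promoters of all genes tested (8.02%). The AP-1 letters TGANTCA were present in 13%, 2.78% and 4.99%. RefSeq promoters were matched for 33 of the 48 genes, 18 of the 23 and 12423 of 18444 symbols. The windows before the starts of SLC3A2, the partner chain of SLC7A5, held no CACGTG. Binding of MYC at these letters was not tested. Of the E-box promoters, 3 overlapped no annotated exon: those of SLC7A5, of PLPP4, a lipid phosphatase, and of SH3RF3, a scaffold protein of JNK signalling. They are shown with the E-box in capitals because SLC7A5 was the most abundant of the called genes after PHF10 knockdown and these windows hold no annotated exon. The windows are chr16:87869508-87869757 on the minus strand, chr10:120456704-120456953 on the plus strand and chr2:109128955-109129204 on the plus strand.
SLC7A5: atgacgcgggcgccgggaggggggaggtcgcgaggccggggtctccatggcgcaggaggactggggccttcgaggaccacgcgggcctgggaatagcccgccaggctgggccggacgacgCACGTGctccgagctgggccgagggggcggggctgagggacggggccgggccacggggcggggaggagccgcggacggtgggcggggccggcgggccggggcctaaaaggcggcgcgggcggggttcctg
PLPP4: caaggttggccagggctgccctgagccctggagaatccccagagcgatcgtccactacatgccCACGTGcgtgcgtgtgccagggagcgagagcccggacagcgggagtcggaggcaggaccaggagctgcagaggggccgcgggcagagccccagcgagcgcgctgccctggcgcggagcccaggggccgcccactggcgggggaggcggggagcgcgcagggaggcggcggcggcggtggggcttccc
SH3RF3: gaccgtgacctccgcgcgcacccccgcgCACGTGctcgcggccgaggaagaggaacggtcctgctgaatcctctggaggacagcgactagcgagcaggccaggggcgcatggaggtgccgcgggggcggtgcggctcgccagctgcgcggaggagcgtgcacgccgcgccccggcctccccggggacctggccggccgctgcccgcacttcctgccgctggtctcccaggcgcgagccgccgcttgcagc

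The E-box began 130 bases before the start in SLC7A5, 187 in PLPP4 and 222 in SH3RF3. PLPP4 measured 23.5, 24.4, 23.6 and 23.5 CPM after PHF10 knockdown against 10.2 and 7.91 CPM, and 12.3 and 10.0 CPM against 14.6 and 16.5 CPM, with a difference of 1.87 (SE 0.22, adjusted p = 0.0197). SH3RF3 measured 16.3 to 18.8 CPM against 15.3 and 15.8 CPM, and 14.1 and 15.9 CPM against 26.3 and 27.2 CPM, with a difference of 1.04 (SE 0.17, adjusted p = 0.0461). The 3 genes thus had groups that did not overlap in either experiment, with the PHF10 response the larger for SLC7A5 and PLPP4 and the labelled MYC response the larger for SH3RF3. PLPP4 and SH3RF3 were chosen for their promoters after their values were seen.

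Of the adhesion, matrix and cytoskeleton lists given here, only the metalloproteinases had a member called below 0. Integrin subunits had a median difference of 0.46 with 17 of 22 tested members above 0 and 1 past the threshold, ITGA2. The alpha subunit ITGA9, which pairs with beta 1, lay at −2.50 (SE 0.48, adjusted p = 0.0657) and ITGA3, a laminin receptor subunit, at 1.33 (SE 0.28, adjusted p = 0.0755). Collagens and other matrix genes had a median of 0.22 over 49 members and 1 past the threshold, LAMB3, a laminin chain. That median was 0.39 without control replicate 1 of experiment 1 and −0.01 without replicate 2, so its direction turned on these libraries. LAMB3 measured 54.5 to 77.5 CPM against 49.2 and 44.4 CPM, and 77.4 and 82.7 CPM against 135.8 and 131.1 CPM, with a difference of 1.27 (SE 0.21, adjusted p = 0.0472). Metalloproteinases and their inhibitors had 28 tested members, a median of 0.09, and 1 member past the threshold in each direction, MMP9 and MMP15. Their median was 0.45 without control replicate 1 of experiment 1, −0.03 without replicate 2, and −0.10 without PHF10 knockdown replicate 1. Actin regulators had a median of 0.17 over 24 tested members, and 2 were past the threshold upward, LCP1 among them.

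Growth factor receptors had a median of −0.08 over 32 members and 1 called, FGFR3, below 0. Their differences ran from −3.91 (RET) to 3.23 (MST1R), with 17 below 0 and 15 above. At an unadjusted p under 0.05 there were 4 below 0 and 3 above. Axon guidance genes had a median of −0.06 over 41 members, with TENM2 and the ephrin ligand EFNA1 called above 0 and EPHB3 below. The axon guidance median was 0.17 without control replicate 1 of experiment 1, −0.26 without replicate 2, and 0.02 without PHF10 knockdown replicate 3. ROBO4, an endothelial guidance receptor chosen after its values were seen, measured 42.4, 26.3, 35.6 and 49.0 CPM after PHF10 knockdown against 14.02 and 11.8 CPM, and 54.2 and 54.0 CPM in libraries labelled MYC knockdown against 107.9 and 108.1 CPM, with a difference of 2.57 (SE 0.33, adjusted p = 0.0221). MST1R, the receptor for macrophage stimulating protein, lay at 3.23 (SE 0.62, adjusted p = 0.0657), and MET, its relative, at 1.03 (SE 0.24, adjusted p = 0.102). NGFR, a marker of dedifferentiated melanoma, measured 18.5 to 36.5 CPM in experiment 1, and 28.4 and 35.5 CPM against 123.5 and 129.6 CPM in experiment 2. Its difference of 1.96 (SE 0.39) missed the threshold, with an adjusted p of 0.0695.

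Cell cycle genes had negative median responses in both experiments, more so after PHF10 knockdown. The G1/S and DNA replication list had a median response of −0.94 after PHF10 knockdown. All 66 members were below 0 there and 49 passed the threshold as falls, against 3.58% of all genes tested. In libraries labelled MYC knockdown the median was −0.37. There 65 members were below 0, 0 passed the threshold and 19 had an unadjusted p under 0.05 by edgeR. Of the members of the G1/S list 63 had a difference below 0, with a median of −0.54. By edgeR none passed the threshold of the difference and 21 had an unadjusted p under 0.05, all below 0, while DESeq2 called 8 and limma-voom none. The G2/M and mitosis list had median responses of −0.86 (33 members fell) and −0.32 (0 passed and 4 had an unadjusted p under 0.05), and 77 of 78 members had a difference below 0, with a median of −0.56. By edgeR none passed and 15 had an unadjusted p under 0.05, all below 0, while DESeq2 called 3 and limma-voom none. With weights for each experiment limma-voom called 9 members of the G1/S list and 2 of the G2/M list. The counts were 21 and 16 with each experiment fitted alone. They were 7 and 7 with the division by interferon genes as a term, and 0 and 0 with the replicate number in the model. The median of the G2/M list was −0.70 without control replicate 1 of experiment 1 and −0.32 without replicate 2. The mean log2 CPM of the G1/S list was 4.36, 4.38, 4.84 and 4.66 after PHF10 knockdown against 5.44 and 5.51, and 5.72 and 5.61 against 6.03 and 6.06, with the 2 lowest values in the PHF10 knockdown replicates with high interferon genes. With only the high interferon libraries of experiment 1 the median difference of the G1/S list was −0.71, and with only the low ones −0.41.

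GINS1, a subunit of the replicative helicase, measured 12.5, 14.6, 13.6 and 15.7 CPM against 41.8 and 36.9 CPM, and 43.6 and 39.6 CPM against 58.8 and 61.1 CPM. Its difference was −0.95 (SE 0.18), with an adjusted p of 0.0657. DTL, a ubiquitin ligase adaptor of S phase, measured 25.5 to 36.1 CPM against 99.1 and 81.3 CPM, and 114.9 and 111.8 CPM against 154.5 and 154.1 CPM, with a difference of −1.02 (SE 0.22, adjusted p = 0.0836). BRCA1, a homologous recombination gene, had a difference of −0.86 (SE 0.18, adjusted p = 0.0763). KIF18B, a mitotic kinesin, had −0.87 (SE 0.23) and KNL1, a kinetochore scaffold, −0.72 (SE 0.18), with adjusted p of 0.151 and 0.127. None of these 5 genes overlapped between the groups of either experiment, but they were picked for a low unadjusted p of the difference. The share of all genes tested without overlap was not counted.

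Among the lists tied to growth, 3 had median differences between −0.06 and 0.07, and the sign of each changed with the control library left out. Nucleolar and ribosome biogenesis factors had median responses of −0.20 and −0.28 and a median difference of 0.07 over 62 members, with 0 called and 1 at an unadjusted p under 0.05 by edgeR, and 0 called by DESeq2 and by limma-voom. That gene was the nucleolar RNA helicase DDX21, at 0.80 (SE 0.32, adjusted p = 0.364). Classical MYC targets outside those lists had median responses of −0.22 and −0.27 and a median difference of −0.01 over 47 members. By edgeR 0 were called and 3 had an unadjusted p under 0.05, and DESeq2 and limma-voom called 0. Nucleotide synthesis genes had median responses of −0.39 and −0.40 and a median difference of −0.06 over 32 members, with 0 called and 3 at an unadjusted p under 0.05 by edgeR. DESeq2 called 1 and limma-voom 0. Without control replicate 1 of experiment 1 the medians of the nucleolar, MYC target and nucleotide lists were −0.02, −0.16 and −0.15, and without replicate 2 they were 0.18, 0.13 and 0.13. Median standard errors of single members were 0.22 to 0.27 in these lists. Over all genes tested, the smallest called difference was 0.925 above 0 and 1.07 in size below 0. Differences several times those standard errors could thus go uncalled, and 0 calls does not show equal responses. Aminoacyl-tRNA synthetases, which load tRNAs with amino acids, had a median difference of 0.19 with 21 of 23 members above 0. By edgeR 0 were called and 1 had an unadjusted p under 0.05, and DESeq2 and limma-voom called 0. Their median was 0.04 without control replicate 1 of experiment 1 and 0.30 without replicate 2.

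All 78 cytosolic ribosomal protein genes had a difference above 0, with a median of 0.25. By edgeR 0 were called and 0 had an unadjusted p under 0.05, and DESeq2 and limma-voom called 0. The median was −0.05 without control replicate 1 of experiment 1 and 0.61 without replicate 2, so the direction of this list turned on these libraries. The list's mean log2 CPM was 8.60 and 8.57 in the PHF10 knockdown libraries with high interferon genes and 9.18 and 9.19 in the other 2, and 8.43 and 9.09 in the controls in the same order. The interferon list itself had a median difference of −0.37 with 0 of 48 members called and 1 at an unadjusted p under 0.05 by edgeR, and 0 called by DESeq2 and by limma-voom. Its median was 1.96 without control replicate 1 of experiment 1 and −1.12 without replicate 2. RSAD2, an antiviral enzyme gene, measured 149.1, 193.0, 1.08 and 5.99 CPM after PHF10 knockdown against 406.6 and 7.86 CPM, and its interval of −11.3 to 6.32 shows that this list could not be compared between experiments.

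Few partners of PHF10 or MYC passed the threshold of the difference. Among 27 subunits of PBAF and BAF only PHF10 was called, and the median difference was −0.20, with 22 members below 0. At an unadjusted p under 0.05 there were 6 below 0, PHF10 among them, and 1 above. That was 25.9% of the list, against 11.7% of all genes tested. BCL7B and SMARCD3, subunits of these complexes, lay at 0.58 and −0.67 (adjusted p = 0.21 and 0.29). In the MYC, MAX and MXD network 0 of 26 members were called by edgeR or limma-voom and 1 by DESeq2. By edgeR 2 had an unadjusted p under 0.05, both below 0. The differences of this list ran from −1.16 (MYCL) to 4.38 (MYCN), and that of MYCN did not reach an unadjusted p of 0.05. MXI1, an antagonist that competes with MYC for MAX, measured 21.6 to 28.7 CPM against 21.1 and 24.4 CPM in experiment 1, and 42.8 and 45.6 CPM against 19.9 and 18.2 CPM in experiment 2. Its labelled MYC response of 1.21 passed the threshold (adjusted p = 0.0247), while its difference of −1.06 (SE 0.22) did not (adjusted p = 0.0757).

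The number of genes called differed widely between settings. It was 71 with a pooled spread, 420 with limma-voom weights for each experiment, 1567 with each experiment fitted alone, 633 with DESeq2 and 58 with limma-voom. With the division by interferon genes as a term in the model the count was 489, with the low libraries of experiment 1 alone 262, and with the high libraries alone 6. Fitted alone, the PHF10 response had 50 calls and the labelled MYC response 7779, against 1169 and 91 in the joint fit. Of the 71 genes, 71 were also called by DESeq2, 55 by limma-voom and 71 with the interferon term, and 71 kept their sign in each.

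**Figure D5:**
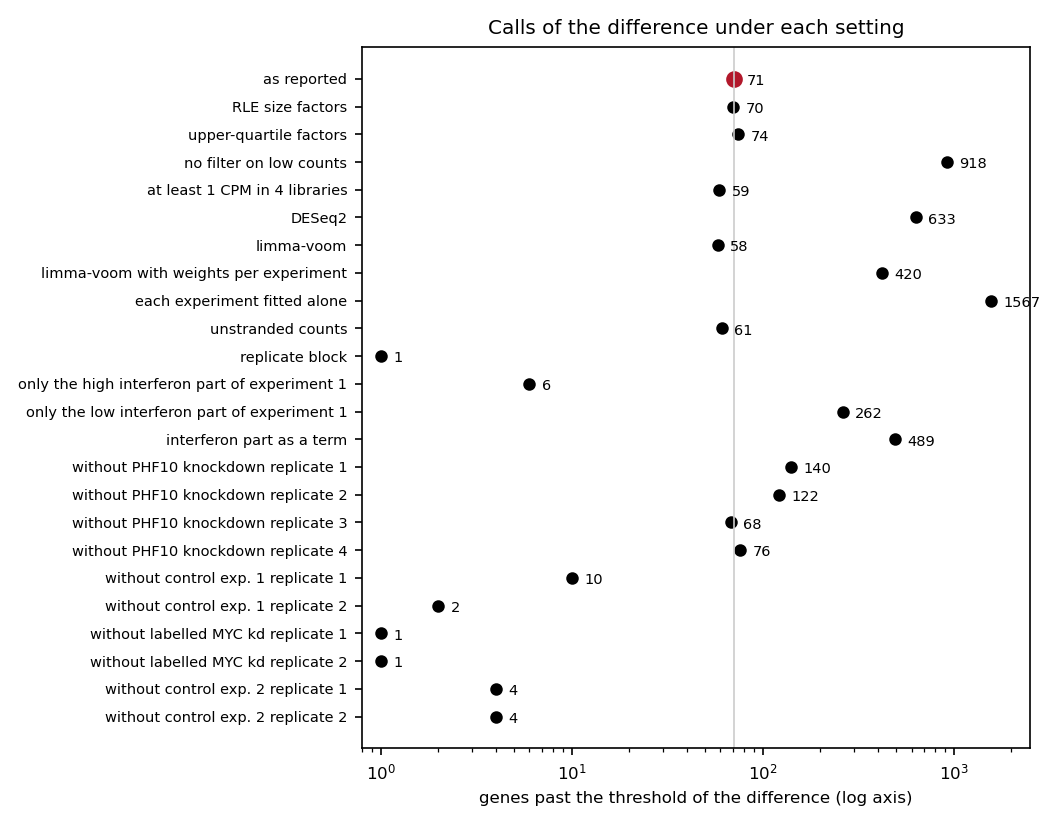
Number of genes past the threshold of the difference (log axis) in the fit as reported (red) and under each of the 23 other settings. The count runs from 1 to 1567, with the lowest values where a library of a group of 2 is left out or the replicate number enters the model.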

How the data were processed

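Messenger RNA was sequenced in 10 libraries as single reads of 100 nt from a directional, poly(A)-selected kit, per the labels' protocols. Per the submitters' processing notes, cutadapt trimmed the reads and STAR aligned them to GRCh38.p13 (hg38), with tool versions and gene annotation not given in the sources used here. What was deposited are raw counts of reads per gene made by the authors. The reverse-strand column was used, since the same-strand column held 5.27% to 5.55% of stranded gene reads. Summary lines that name no gene (19.1% to 23.6% of a library) were left out.

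The fit used edgeR 4.0.16 under R 4.3.3, with quasi-likelihood tests, TMM factors, filterByExpr by group and robust spread, on all 10 libraries as 4 group means (6 residual degrees of freedom). All adjusted p in the text are Benjamini-Hochberg values over the 18450 genes of this fit unless another tool is named, and the threshold was 0.05. Group sizes were 4, 2, 2 and 2, and fold changes are log2. Means of log2 CPM used a prior count of 2. Alternatives used DESeq2 1.42.0 and limma 3.58.1. Genes were named from a table of gene names (60295 of 60623 IDs) and GENCODE release 29 (58516), with 19 IDs in neither.

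Members, tests and the 44 gene lists (1450 genes, 6 symbols unmatched) were chosen with earlier results of these data known. The rule for named genes took PHF10 and MYC, the 12 largest called differences in each direction with a group mean of at least 5 CPM and no clone name, up to 6 genes for each order of opposite responses, up to 3 for each shared direction with a called difference, the 6 narrowest intervals over 0 among shared responses, and, from each list, the 4 members with the lowest unadjusted p. Some list members were left out for length, and KRT18, KRT6B, KRT15, SLC7A1, SLC38A2 and SLC1A1 were added after their values were seen. A result that needs a withheld item is not reported here.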

Additional observations from a re-analysis of the deposited data

Results flagged for a closer look

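Of 78 genes examined among the 4 PHF10 knockdown libraries, 4 had a library farther from the others than the 95% critical value of Dixon's test allows, where chance flags about 1 gene in 20. APBB1 measured 16.8 CPM in replicate 4 and 19.4 to 19.7 CPM in the other 3. PLPP4 measured 24.4 CPM in replicate 2 and 23.5 to 23.6 CPM in the others. ARHGDIB measured 2.59 CPM in replicate 3 and 1.34 to 1.54 CPM in the others, and APC2 measured 2.07 CPM in replicate 2 and 1.22 to 1.30 CPM in the others.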

How the results depend on the processing

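None of the 71 called differences changed sign under any of the 23 settings that tested it. The number called, 71 as reported, was 918 without a filter on low counts, 633 by DESeq2, 420 by limma-voom with weights for each experiment, 1567 with each experiment fitted alone, 6 and 262 with only the high or only the low interferon libraries of experiment 1, 489 with that division as a term, and 1 to 140 with a library left out. RLE factors gave 70, upper-quartile factors 74, the stricter filter 59, limma-voom 58 and unstranded counts 61. The PHF10 response, 1169 as reported, was 2372 without a filter, 2165 by DESeq2, 489 with weights, 50 fitted alone, 523 with the high interferon libraries, 2467 with the term, and 214 to 1387 with a library left out. The labelled MYC response, 91 as reported, was 911 without a filter, 720 by DESeq2, 211 by limma-voom, 6006 with weights, 7779 fitted alone, 159 and 1081 with the high or low interferon libraries, 558 with the term, and 0 to 231 with a library left out. The cause of these changes was not tested. Deviations of same-numbered libraries from their group means correlated at 0.484 and −0.297 in experiment 1 and −0.031 in experiment 2. In a group of 2 libraries the deviations mirror each other. These values therefore cannot settle whether the replicate numbers pair the samples. With the replicate block 1 gene was called for the difference, KRT80, and 0 for the labelled MYC response. A group left with 1 library was assumed to vary like the others. The interferon list, with a median SE of 1.63, could not resolve a difference between experiments.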
